A study of Mus musculus with 8 samples.

Results

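The genes described here code for the machinery of vesicle transport between the endoplasmic reticulum (ER) and the Golgi, measured by single-cell RNA sequencing in the osteoblasts (OBs) of newborn mouse parietal bone. The 39 genes were taken by symbol from the 31053 genes listed in every library, and fall into 5 classes by the role of their protein: 10 genes of the COPII coat, 6 genes of ER exit sites and of large cargo export, 8 genes of the COPI coat, 12 cargo receptors and 3 KDEL receptors. All 39 passed the filter on low counts in each comparison below, except where a smaller number tested is given. Cells were released from the parietal bones of pups 4–5 days after birth (P5), with no treatment. The 8 libraries comprised 4 of wild type (WT) pups (S1, S2, S5 and S6) and 4 of pups heterozygous (Het) for the G610C mutation (S3, S4, S7 and S8), strain B6.129(FVB)-Col1a2tm1Mcbr/J kept on the C57BL/6J background, in which cysteine takes the place of a glycine in the triple-helical part of pro-α2(I), a chain of type I procollagen. The mutation is germline, so every cell type of a Het pup carried it. The cells of several pups of the same genotype went into each library, and the replicate is therefore the library, not the pup. Libraries S1 to S4 were made with version 3 of the capture kit and S5 to S8 with version 3.1. The alignment software changed release at the same point, so kit, software and preparation cannot be told apart.

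Proteins made for secretion leave the ER in vesicles shaped by the COPII coat, in which the GTPase SAR1 recruits an inner layer of SEC23 and SEC24 and an outer cage of SEC13 and SEC31. Procollagen is too long for an ordinary vesicle, and its export calls on TANGO1 (gene Mia3) and on ubiquitylation of SEC31 by CUL3 with its adaptor KLHL12. COPI vesicles carry escaped ER proteins and empty receptors back from the Golgi, and KDEL receptors are the sensors that catch ER chaperones for that return. Loss of SEC23A or SEC24D function is known to cause defects of skull and facial bone in people and fish, which is why both genes are named below whether or not they changed.

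A cell was kept when it showed 500 genes or more and when mitochondrial transcripts made up less than 10% of its UMIs (unique molecular identifiers, each a counted transcript). OBs were the kept cells that had 10 or more Col1a1 UMIs and in which 2 or 3 of the genes Runx2, Sp7 and Ibsp reached 2 UMIs. This gave 2671 OBs (1706 WT and 965 Het) beside 43749 other cells. Following the study's limits, OBs with under 0.75% of their UMIs from Col1a1 were called early (eOBs, 379 cells), those from 0.75% to 3.5% differentiating (dOBs, 1217 cells) and those over 3.5% mature (mOBs, 1075 cells). Per library there were 22 to 95 eOBs, 33 to 427 dOBs and 42 to 299 mOBs, and UMIs summed over the cells of 1 stage and library ran from 204130 to 6304261. The names held up against markers that the stage rule did not use: from eOBs to mOBs the log2 fold change was 6.57 for Bglap (osteocalcin), 5.23 for Ifitm5, 3.68 for Phex and 2.63 for Dmp1, all genes of mineralizing OBs, against -3.28 for Cxcl12, a gene of stromal progenitors. Libraries shared at most 24 cell barcodes in any pair. Libraries S1 and S2, the WT libraries of kit version 3, stood apart. Cells with 3 or more haematopoietic markers detected were 56.5% of the cells of S1 and 46.5% of S2, but 3.21% to 9.75% of the other 6 libraries. Erythroid markers reached that number in 84.0% and 99.2% of the cells of S1 and S2 and in 0.443% to 23.4% of those of the other 6. The OBs shared this: such cells were 86.3% and 100% of the mOBs of S1 and S2, 35.4% and 26.0% in the Het libraries S3 and S4, and 2.38% to 7.69% in S5 to S8. Chondrocyte markers reached it in 90.0% to 98.2% of all cells of S5 to S8, including 85.3% to 96.2% of their mOBs.

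From eOBs to mOBs most of the transport genes rose, in all 5 classes. The KDEL receptor Kdelr2 rose 3.43-fold and the COPII cargo adaptor Sec24d 3.21-fold, and Kdelr3, Copz2, Sec31a, Lman1 and Sec23a rose between 2.71-fold and 3.11-fold. In edgeR's quasi-likelihood test with the library as a block, 31 of the 39 genes were higher in mOBs and 1, Tmed5, was lower at a Benjamini-Hochberg adjusted p under 0.05. Among all 11229 genes tested, 17.7% were called higher and 18.1% lower, 35.8% in all. The median log2 fold change was 0.86 over the 39 genes and -0.03 over all genes. In all 8 libraries 29 of the 39 were higher in mOBs than in eOBs of the same library, a count that was not made over all genes. Levels below are TMM-scaled CPM, that is counts of UMIs scaled to a common library size, with the size corrected by the trimmed mean of M values (TMM) so that a few very abundant genes weigh less, and for the 8 libraries the lowest, the median and the highest are given. Because these are UMI counts from the cells of a stage, more transcript per cell and less of other transcripts in the same cells cannot be told apart.

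**Figure D1:**
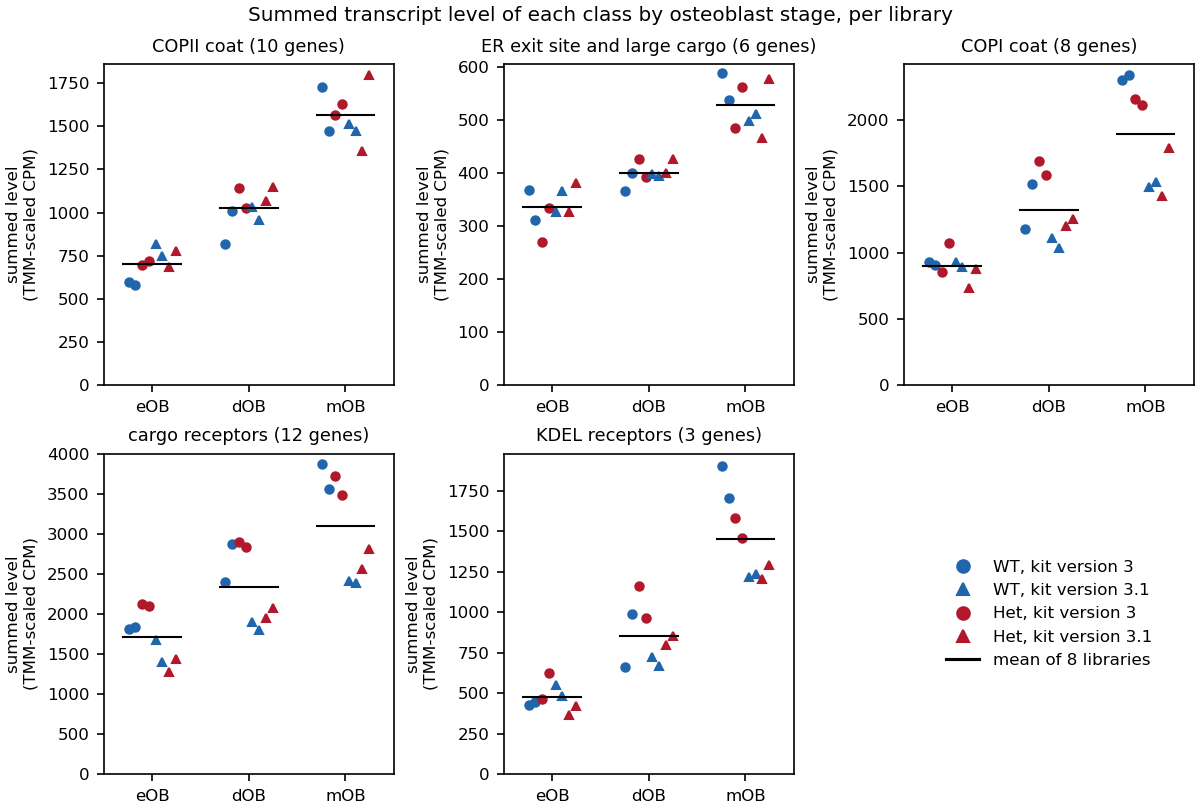
Summed level of each class of transport genes (vertical axis, TMM-scaled CPM, starting at 0) in early (eOB), differentiating (dOB) and mature (mOB) osteoblasts. Each point is 1 library, colour marks genotype, shape marks kit version and the bar is the mean of 8 libraries; in each of the 5 classes every mOB library lies above every eOB library, and the KDEL receptors ran from 366–627 in eOBs to 1204–1902 in mOBs.

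In the COPII coat, 8 of 10 genes were higher in mOBs, with a class median log2 fold change of 0.91. SEC24 proteins choose the cargo of a COPII vesicle, and mice have 4 of them. Sec24d ran from 18.3 through a median of 73.0 to 130.4 in eOBs and from 134 through 215 to 330.1 in mOBs. No mOB library lay as low as the highest eOB library, and within both stages the 4 libraries of kit version 3 were the lowest. The log2 fold change of Sec24d from eOBs to mOBs was 1.68 (SE 0.16, adjusted p 3.81e-08 in edgeR). In eOBs Sec24d had only 39, 6, 7 and 10 UMIs in S1 to S4, against 196, 138, 144 and 52 in S5 to S8. Its rise was larger in S1, S2 and S3 than in any of S5 to S8, so its size is uncertain. Sec24a rose by 0.74 on the log2 scale, while Sec24b (-0.06, 95% interval -0.32 to 0.19) and Sec24c (-0.04, -0.33 to 0.24) did not pass the test.

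SEC23 proteins are the part of the inner coat that makes SAR1 hydrolyse GTP. Sec23a ran from 36.6 through 56.5 to 77.8 in eOBs and from 122 through 153 to 227 in mOBs, with no overlap between the stages, a log2 fold change of 1.44 (SE 0.13, adjusted p 2.58e-08 in edgeR). Its paralogue Sec23b changed by 0.43 (adjusted p 0.0368), from a median of 23.0 to 36.2. Among the cage subunits, Sec31a ran from 146 through 155 to 182 in eOBs and from 344 through 415 to 509.8 in mOBs. The lowest mOB library thus stood above the highest eOB library here as well, and the log2 fold changes were 1.44 for Sec31a and 1.22 for Sec13. The GTPases Sar1a and Sar1b rose by 1.09 and 0.58 on the log2 scale.

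**Figure D2:**
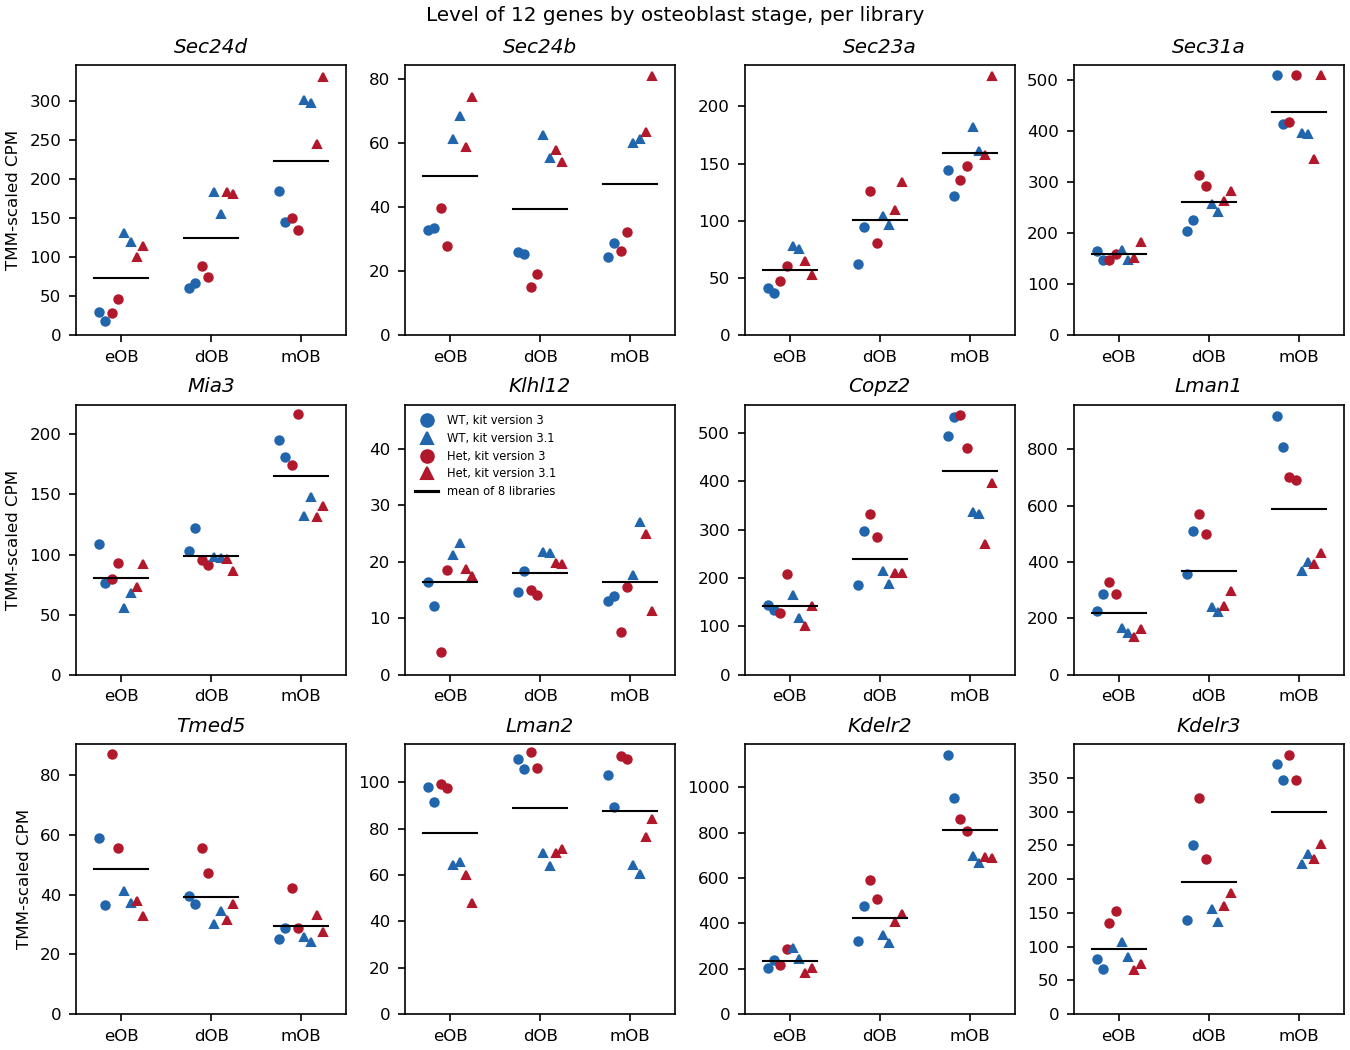
Level of 12 transport genes (vertical axes, TMM-scaled CPM, each starting at 0) in the 3 osteoblast stages, with 1 point per library. Sec24d, Sec23a, Sec31a, Copz2, Lman1, Kdelr2 and Kdelr3 step up from eOB to dOB to mOB, Sec24b and Klhl12 hold their range (Sec24b 27.9–74.4 in eOBs and 24.3–80.9 in mOBs), and Tmed5 steps down.

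At ER exit sites, 4 of the 6 genes were higher in mOBs. Mia3, whose product TANGO1 links procollagen to the COPII coat, ran from 55.9 through 77.8 to 109 in eOBs and from 132 through 161 to 217 in mOBs. The stages did not overlap, and the log2 fold change was 1.03 (SE 0.11, adjusted p 2.35e-07 in edgeR). The exit site scaffold Sec16a rose by 0.52, the SAR1 exchange factor Preb (SEC12) by 0.85 and Tfg, which gathers COPII carriers, by 0.86 on the log2 scale. The 2 genes of the ubiquitin ligase did not pass the test. Klhl12 ran from 3.97 through 18.0 to 23.3 in eOBs and from 7.54 through 14.7 to 27.0 in mOBs, with stages that overlap over nearly their whole range. It was also the gene with the fewest UMIs, 1 to 32 per library in eOBs and 7 to 122 in mOBs, and its log2 fold change was -0.01 (95% interval -0.36 to 0.34). For Cul3 it was 0.09 (-0.20 to 0.38), so that a rise of the size seen for Mia3 lay outside both intervals.

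All 8 COPI genes were higher in mOBs, from 0.64 for Copz1 to 1.53 for Copz2 on the log2 scale, with a class median of 0.94. COPZ1 and COPZ2 are alternative small (zeta) subunits of the same coat. Copz2 ran from 101 through 138 to 209 in eOBs and from 270.4 through 432 to 536 in mOBs. Each library was higher in mOBs, and the stages did not overlap (log2 fold change 1.53, SE 0.12, adjusted p 4.22e-09 in edgeR). The other 6 subunits, Copa, Copb1, Copb2, Arcn1, Copg1 and Cope, lay between 0.83 and 1.05.

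Of the 12 cargo receptors, 8 were higher and 1 was lower. Lman1 (ERGIC-53), the lectin that carries coagulation factors and other glycoproteins, ran from 134 through 195 to 329 in eOBs and from 367 through 562 to 919 in mOBs. Levels were higher in kit version 3 than in version 3.1 at each stage, with no overlap between the stages over all 8 libraries, and the log2 fold change was 1.44 (SE 0.10, adjusted p 1.14e-09 in edgeR). Its small calcium-binding partner Mcfd2 rose by 0.46. Surf4, a receptor for soluble secreted proteins, rose by 1.34, from 84.7 through 121 to 172 in eOBs to 207 through 311 to 473 in mOBs.

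The p24 family (Tmed genes), receptors that cycle between ER and Golgi, was not uniform. Tmed3 (1.31), Tmed2 (0.92), Tmed10 (0.68) and Tmed9 (0.54) rose, Tmed7 did not pass (0.23, adjusted p 0.103) and Tmed5 fell by 0.68 on the log2 scale (SE 0.12, adjusted p 0.000145 in edgeR). Tmed5 ran from 32.8 through 39.6 to 87.3 in eOBs and from 24.3 through 28.1 to 42.4 in mOBs. The ranges overlap between libraries, but within each of the 8 libraries mOBs were lower than eOBs. The gene Tmed7 overlaps Ticam2 on the same strand in the annotation, so reads of the pair may not be separated. Lman2 (0.15) and Ergic1 (0.21, adjusted p 0.0984) did not pass, and Ergic3 rose by 0.68.

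All 3 KDEL receptors rose. Kdelr2 ran from 183 through 228 to 291 in eOBs, from 313 through 423 to 589.5 in dOBs and from 665 through 751 to 1142 in mOBs. Neither step left an overlap between neighbouring stages, and the log2 fold change from eOBs to mOBs was 1.78 (SE 0.14, adjusted p 3.74e-09 in edgeR). Kdelr3 ran from 65.7 through 83.5 to 153 in eOBs and from 222 through 299.5 to 384 in mOBs (log2 fold change 1.64, SE 0.14, adjusted p 1.08e-08 in edgeR). Kdelr1 rose by 1.23.

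**Figure D3:**
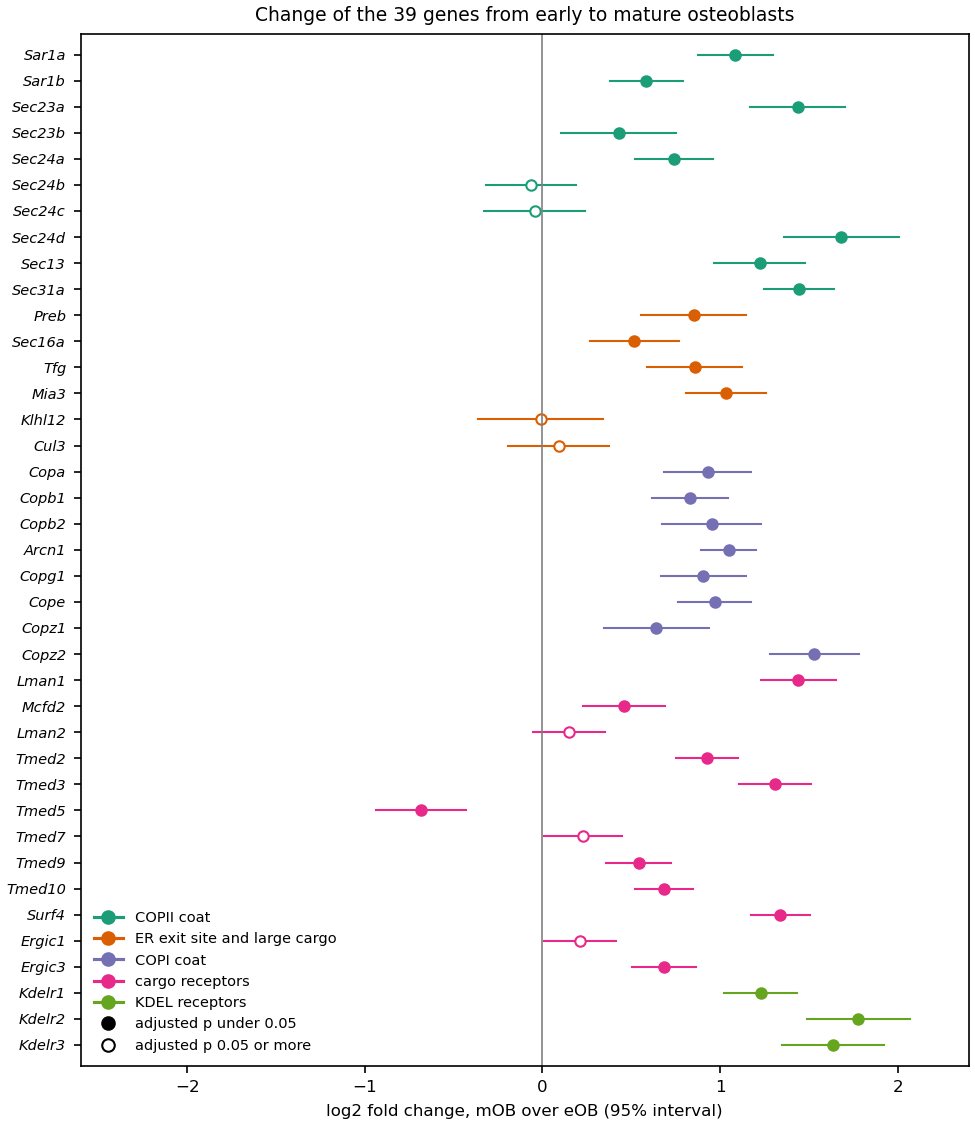
Log2 fold change of each of the 39 genes from early to mature osteoblasts (horizontal axis, edgeR fit over 8 libraries with the library as a block), with its 95% interval. Filled points passed an adjusted p of 0.05; the 31 genes to the right of 0 run from 0.43 (Sec23b) to 1.78 (Kdelr2), and Tmed5 is the 1 filled point to the left, at -0.68.

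Within gene families, members that can stand in for each other in the same coat moved by different amounts. Over 12 pairs of paralogues, chosen after the values were seen and given with no test, the log2 ratio of mOB to eOB was compared within each library. It was larger for Sec24d than for Sec24b in 8 of 8 libraries (Sec24b minus Sec24d averaged -1.98, SD 0.91), and larger for Sec24d than for Sec24c (-1.82) and Sec24a (-1.11) in 8 of 8. These Sec24 values rest on few eOB UMIs in S1 to S4, 6 to 39 per library for Sec24d and 6 to 44 for Sec24b. Sec23a exceeded Sec23b by 1.01 (SD 0.61) and Copz2 exceeded Copz1 (Copz1 minus Copz2 -0.78, SD 0.46) in 8 of 8 libraries. Kdelr2 exceeded Kdelr1 in 8 of 8, and Kdelr2 and Kdelr3 had no fixed order (0.12, SD 0.26, Kdelr2 larger in 5 of 8).

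The count of rising genes depends on the scale. The median TMM factor was 1.12 in eOBs, 1.08 in dOBs and 0.828 in mOBs. Per total UMIs without TMM, the scale on which the study normalised, the median over all genes from eOBs to mOBs shifted from -0.03 to -0.48, and 24 of the 39 genes were called higher and 7 lower, where 6.88% of all genes were called higher and 56.6% lower. The genes lower on that scale were Tmed5, Sec24b, Sec24c, Klhl12, Cul3, Lman2 and Ergic1, 6 of which had not passed on the TMM scale. Of the 31 genes called higher with TMM, 7 did not pass per total UMIs, namely Ergic3 (0.22), Copz1 (0.19), Sar1b (0.12), Sec16a (0.07), Tmed9 (0.07), Mcfd2 (-0.00) and Sec23b (-0.02). On that scale 6 of 10 COPII genes, 3 of 6 exit site genes, 7 of 8 COPI genes, 5 of 12 cargo receptors and 3 of 3 KDEL receptors were still called higher, Kdelr2 at 1.31, Sec24d at 1.23 and Mia3 at 0.56. Relative to the shift of all genes, the 39 genes stood higher on both scales (median 0.39 per total UMIs).

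Markers of other cell types moved with the stages. All 8 endothelial and all 8 chondrocyte markers fell from eOBs to mOBs, and summed chondrocyte markers took 0.00249% to 2.81% of UMIs in eOBs and 0.00300% to 0.301% in mOBs. Leaving out OBs with at least 3 detected markers of haematopoietic, endothelial, smooth muscle or fibroblast cells gave 30 genes higher and 1 lower (16.5% of all genes were called higher). When chondrocyte and erythroid markers were counted as well, only 3 libraries kept enough cells of both stages, and 15 of 36 genes tested were higher and 0 lower (median 0.82), where 6.67% of all genes were called higher. That selection dropped 41.0% to 100% of the OBs of a library, so true OBs may have been among those left out. There Mia3 (0.74, adjusted p 0.191) and Tmed5 (-1.18, adjusted p 0.170) no longer passed. The part of these markers in the result was otherwise not tested.

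Both steps of maturation contributed, though no gene was called from eOBs to dOBs once OBs with markers of any other class were left out, on fewer libraries and cells. From eOBs to dOBs 22 of the 39 genes rose and 0 fell (7.2% of all genes were called higher and 8.15% lower), with a median log2 fold change of 0.42, led by Kdelr3 (95% interval 0.71 to 1.29), Kdelr2 (0.84), Sec24d (0.78) and Sec23a (0.76). From dOBs to mOBs 29 rose and 1, Tmed5 (-0.39), fell (13% of all genes were called higher and 13.8% lower), with a median of 0.43, led by Kdelr2 (0.94), Sec24d (0.91) and Copz2 (0.80), and with Sec23a at 0.68. Mia3 passed in the second step (0.72, adjusted p 1.78e-05) and not in the first (0.31, adjusted p 0.058), a difference that was not itself tested. The second step turned on the scale. Per total UMIs 10 genes were higher and 8 lower (5.13% and 50.7% of all genes), with a median of 0.07 against -0.38 over all genes. In the first step 21 were higher and 1 lower on that scale. The shares of all genes for that step are not given here, so the steps are not compared per total UMIs.

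Since most of these genes rose together, their promoters were searched for the letters of ER stress elements. The window was the 250 bases before each transcription start in RefSeq (build GRCm38.p6), read on both strands, and 36 promoters were found for 34 of the 39 genes (none for Arcn1, Lman1, Tmed2, Tmed7 and Kdelr2). CCACG, the second part of the ER stress response element known to bind ATF6 and XBP1, was in 63.9% of these promoters and in 28.3% of all 32851 promoters of that length. TGACGTG, the core of the unfolded protein response element, was in 13.9% (Cul3, Mia3, Sec24d, Copb1 and Kdelr3) and in 1.65% of all. The members' promoters were also richer in G and C, with a median of 61.6% against 52.4%, so the shares are not matched for base composition. CCACG was in 16 of 29 promoters of genes higher in mOBs and in 7 of 7 of those that were not, and these sets differed in base composition as well, with a median of 56.4% G and C against 65.2%. CCAAT was in 38.9% against 33.8% of all, and the full element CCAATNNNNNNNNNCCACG was in 0 of the 36 and in 0.113% of all. The largest riser of each class with an entry is shown, followed by Tmed5, which fell. Sequences run 5′ to 3′ on the strand of the gene, and capitals mark CCACG or its reverse complement CGTGG, and TGACGTG or its reverse complement; the motifs overlap in Sec24d and Kdelr3.
Sec24d: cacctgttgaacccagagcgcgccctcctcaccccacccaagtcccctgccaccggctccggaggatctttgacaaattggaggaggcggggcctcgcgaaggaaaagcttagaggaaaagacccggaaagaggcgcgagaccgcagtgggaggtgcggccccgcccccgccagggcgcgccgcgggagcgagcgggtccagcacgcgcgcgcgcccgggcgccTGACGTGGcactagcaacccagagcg
Mia3: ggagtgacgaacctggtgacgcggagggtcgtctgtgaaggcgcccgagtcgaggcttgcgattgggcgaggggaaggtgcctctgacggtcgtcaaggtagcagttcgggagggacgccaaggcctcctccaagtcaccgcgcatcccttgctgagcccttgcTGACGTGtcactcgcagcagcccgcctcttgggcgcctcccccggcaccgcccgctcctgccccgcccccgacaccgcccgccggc
Copz2: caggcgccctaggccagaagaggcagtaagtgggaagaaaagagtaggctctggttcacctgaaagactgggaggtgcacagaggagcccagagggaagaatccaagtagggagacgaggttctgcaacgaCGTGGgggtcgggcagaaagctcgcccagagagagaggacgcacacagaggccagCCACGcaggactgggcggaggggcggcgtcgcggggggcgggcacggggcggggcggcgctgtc
Surf4: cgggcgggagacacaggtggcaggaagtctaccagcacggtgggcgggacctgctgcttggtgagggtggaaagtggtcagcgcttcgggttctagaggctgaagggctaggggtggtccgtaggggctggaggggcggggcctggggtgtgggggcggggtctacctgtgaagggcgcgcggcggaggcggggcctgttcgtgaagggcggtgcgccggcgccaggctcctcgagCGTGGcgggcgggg
Kdelr3: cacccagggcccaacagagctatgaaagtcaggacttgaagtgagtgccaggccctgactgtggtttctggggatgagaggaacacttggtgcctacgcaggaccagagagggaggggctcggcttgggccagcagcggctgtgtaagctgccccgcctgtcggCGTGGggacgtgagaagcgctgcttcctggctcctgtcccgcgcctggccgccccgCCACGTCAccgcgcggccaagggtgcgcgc
Tmed5: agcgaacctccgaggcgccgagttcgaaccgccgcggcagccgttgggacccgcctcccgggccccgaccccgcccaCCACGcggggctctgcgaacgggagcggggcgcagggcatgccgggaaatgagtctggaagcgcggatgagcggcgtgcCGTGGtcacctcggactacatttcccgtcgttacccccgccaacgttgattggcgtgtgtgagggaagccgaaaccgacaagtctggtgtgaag

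These windows lie at chr3:123267246-123267495 on the plus strand for Sec24d, chr1:183369566-183369815 on the minus strand for Mia3, chr11:96849626-96849875 on the plus strand for Copz2, chr2:26933512-26933761 on the minus strand for Surf4, chr15:79516158-79516407 on the plus strand for Kdelr3 and chr5:108132621-108132870 on the minus strand for Tmed5. All end at the base before a RefSeq transcription start, so they are upstream of the RefSeq transcript; in GENCODE release M21 of the same build the Surf4 window lies within the Surf4 gene and the last bases of the Sec24d and Copz2 windows overlap the start of the gene. The letters marked in Sec24d and Surf4 lie inside the GENCODE gene, and those marked in Copz2 lie before it.

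Of 61 further genes of the route, 59 were tested from eOBs to mOBs, and 31 were higher and 1 was lower, where 17.7% and 18.1% of all genes were. Per total UMIs without TMM 22 were higher and 17 lower (6.88% and 56.6% of all genes). The counts by group that follow are on the TMM scale. Among tethers and fusion factors 14 of 29 rose, among them Gorasp2 (1.22) and Uso1 (1.21), which tether vesicles to the cis-Golgi. Of the other coat and Arf genes 8 of 11 rose, led by Sec16b (1.73) and Arfgap3 (1.30), and of the other cargo receptors 6 of 13. Among 6 transcription regulators of the secretory pathway and their proteases, 3 rose and 1 fell. Creb3l1 (OASIS), which drives secretory and collagen genes in OBs, rose by 3.23 on the log2 scale (adjusted p 3.63e-12 in edgeR), from 29.7 through 54.8 to 73.2 in eOBs to 263 through 564 to 961 in mOBs. Its relative Creb3l2 fell by 0.45 (adjusted p 0.0195), and Xbp1 rose by 1.20.

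Against the other cells of the same libraries, OBs as a whole were higher for 22 of the 39 genes and lower for 0 (37.5% of all 16420 genes tested were called, 13.8% as higher and 23.8% as lower), with a median log2 fold change of 0.47 against -0.08 over all genes. By class, 6 of 10 COPII genes, 3 of 6 exit site genes, 5 of 8 COPI genes, 5 of 12 cargo receptors and 3 of 3 KDEL receptors were higher. Lman1 ran from 265 to 598 in OBs and from 122 to 268 in other cells, a log2 fold change of 1.16 (SE 0.20, adjusted p 0.00127 in edgeR). Kdelr3 (1.13), Kdelr2 (1.09), Sec24d (1.07), Copz2 (1.07) and Sec31a (1.03) followed, and Sec23a (0.90) and Mia3 (0.65) also passed. Klhl12 (-0.37, adjusted p 0.078) and Tmed5 (-0.40, adjusted p 0.0648) did not pass. Klhl12 passed as lower in 7 of 22 alternative settings. Without library S4, 13 genes were higher and 1 lower (10.8% of all genes were called higher).

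The size of the difference turned on which cells OBs were set against, and in S1 and S2 most non-OB cells carried haematopoietic or erythroid markers. Sec24d in the other cells was 21.1 in S1 and 14.3 in S2, 52.6 and 45.2 in S3 and S4, and 140.5 to 160.5 in S5 to S8. The OBs of the same libraries were at 84.2 to 108 in S1 to S4 and 186 to 220.4 in S5 to S8, above the other cells in each. Haematopoietic-like cells were those non-OB cells that had at least 3 haematopoietic markers and fewer than 3 of each other class, which left out the many cells with erythroid markers as well and kept 13 to 587 cells in 7 libraries. Against them, 26 genes were higher and 1 lower (29.5% and 27.9% of all genes), with Kdelr3 at 5.03, Copz2 at 3.82, Lman1 at 2.90 Sec24d at 2.86 and Sec23a at 2.77, and Tmed5 at -1.51. Chondrocyte-like cells, chosen in the same way, were 67.1% to 83.6% of the non-OB cells of S5 to S8, 35.0% and 26.6% of those of S3 and S4, and 19 cells in S1. In S5 to S8 this group was thus most of the non-OB cells and not a clear type. Against it (7 libraries), 14 were higher and 2 lower (28.7% and 24.5% of all genes), and the median over the 39 genes was 0.14. There Lman1 (0.73), Preb (0.73), Kdelr2 (0.59) and Surf4 (0.56) led, Tmed5 was higher (0.39), and Klhl12 (-0.32) and Tmed9 (-0.24) were lower.

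**Figure D4:**
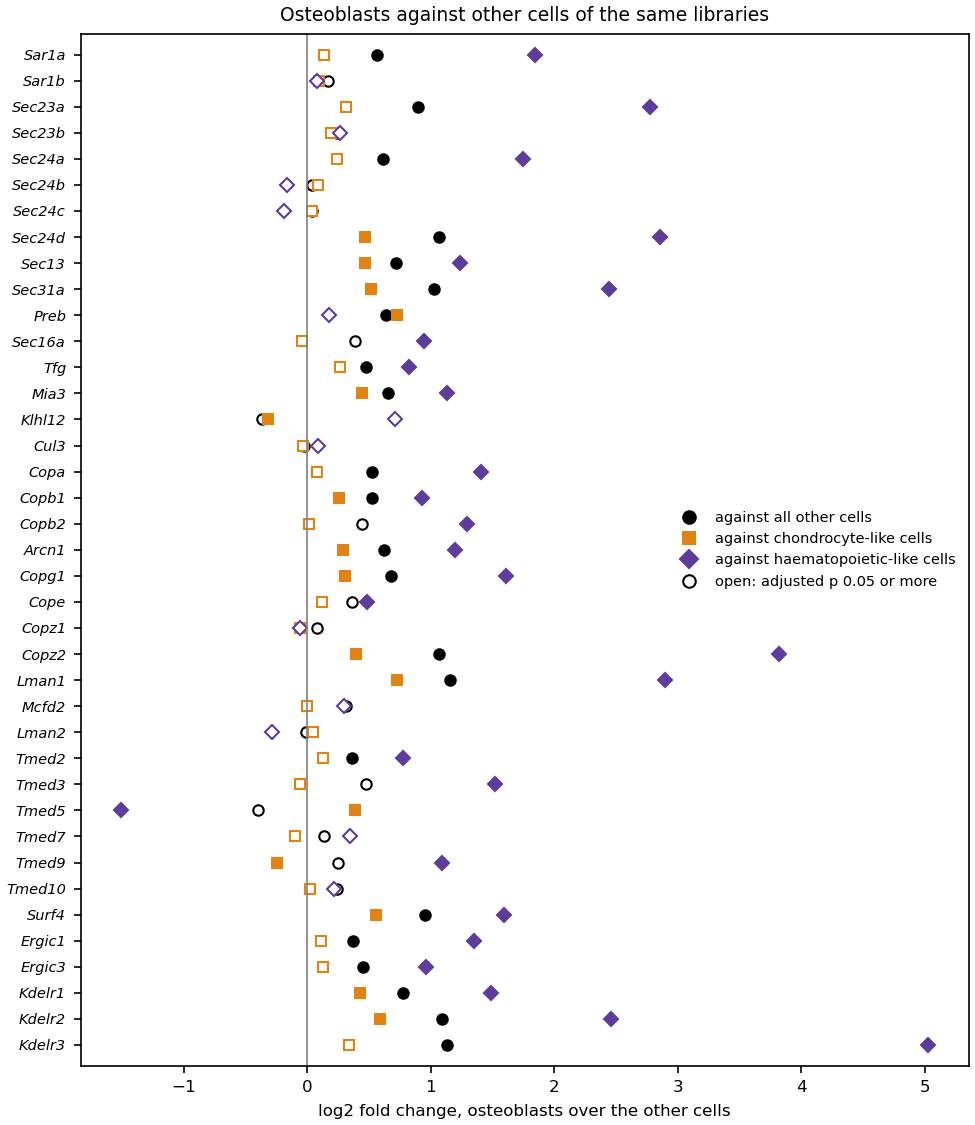
Log2 fold change of each of the 39 genes in osteoblasts against all other cells, chondrocyte-like cells and haematopoietic-like cells of the same libraries (horizontal axis). Filled points passed an adjusted p of 0.05; values against haematopoietic-like cells reach 5.03 (Kdelr3), and those against chondrocyte-like cells stay between -0.32 and 0.73.

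Whether the procollagen mutation changed the transport genes was asked by comparing Het with WT within each stage, with kit version in the model. In mOBs 0 of the 39 genes passed an adjusted p of 0.05 in edgeR, where 0.518% of all 10033 genes did, and DESeq2 also called 0. At an unadjusted p under 0.05 there was 1 gene, against 11% of all genes. That number was 4 without S8, 3 without S4, 2 without S1 and 0 without S2, S5, S6 or S7, and 3 without TMM. These counts stand without the share of all genes in the same fits. The median log2 fold change was -0.01 over the 39 genes and 0.01 over all genes. All 39 intervals lay within 1 log2 unit of 0 in either direction and 34 lay within 0.5, so in this fit a change of the size that separates mOBs from eOBs for Kdelr2 or Sec24d lay outside every interval.

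The gene with the lowest p in mOBs was the lectin receptor Lman2, at 103, 89.6, 64.5 and 60.6 in the WT libraries S1, S2, S5 and S6 and at 111, 109.97, 76.5 and 84.2 in the Het libraries S3, S4, S7 and S8. Within each kit version both Het libraries stood above both WT libraries, a log2 fold change of 0.27 (95% interval 0.03 to 0.50, unadjusted p 0.0285, adjusted p 0.371 in edgeR). Tmed5 was at 25.2, 28.8, 25.7 and 24.3 in WT and 42.4, 28.7, 33.2 and 27.5 in Het (0.34, adjusted p 0.485). Tmed9 was at 487, 438, 329 and 318 in WT and 548, 467, 399.5 and 399.7 in Het (0.22, adjusted p 0.507). For Tmed5 the genotypes overlapped in kit version 3, and for Tmed9 they did in S1 and S4.

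The genes tied to procollagen export or to skull disease gave no call in mOBs either. Sec23a was at 144, 122, 182 and 161 in WT and 136, 148, 157 and 227 in Het (0.11, interval -0.17 to 0.39). Sec24d was at 185, 145, 300.8 and 297 in WT and 149.9, 134, 245 and 330.1 in Het (-0.15, interval -0.42 to 0.13). Mia3 was at 195, 181, 132 and 148 in WT and 174, 217, 132 and 141 in Het (0.00, interval -0.23 to 0.24). The genotypes overlapped within at least 1 kit version for each of the 3 genes. Leaving out OBs with markers of any other class kept only S1, S3, S4, S5 and S6. Both Het libraries were then of kit version 3, so that with kit version in the model they were set against 1 WT library, S1, with 10 mOBs. Sec24d was at -0.98 and Sec23a at -0.57 on that footing, values without a WT replicate and given with no test. Klhl12, the sparsest gene, was at 13.0, 13.9, 17.6 and 27.0 in WT and 7.54, 15.6, 25 and 11.3 in Het (-0.10, interval -0.70 to 0.49), the widest interval of the 39. Kdelr2 was at 1142, 952, 697 and 665 in WT and 859, 806, 691 and 688 in Het (-0.16, interval -0.42 to 0.11), lower in both Het libraries of kit version 3 and inside the WT range in version 3.1. Of the 39 genes 19 had the same sign in both kit versions, and 0 differed between kit versions at an adjusted p under 0.05 (0.0897% of all genes did). In dOBs and eOBs that count was 0 as well (0.147% and 0.699% of all genes).

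**Figure D5:**
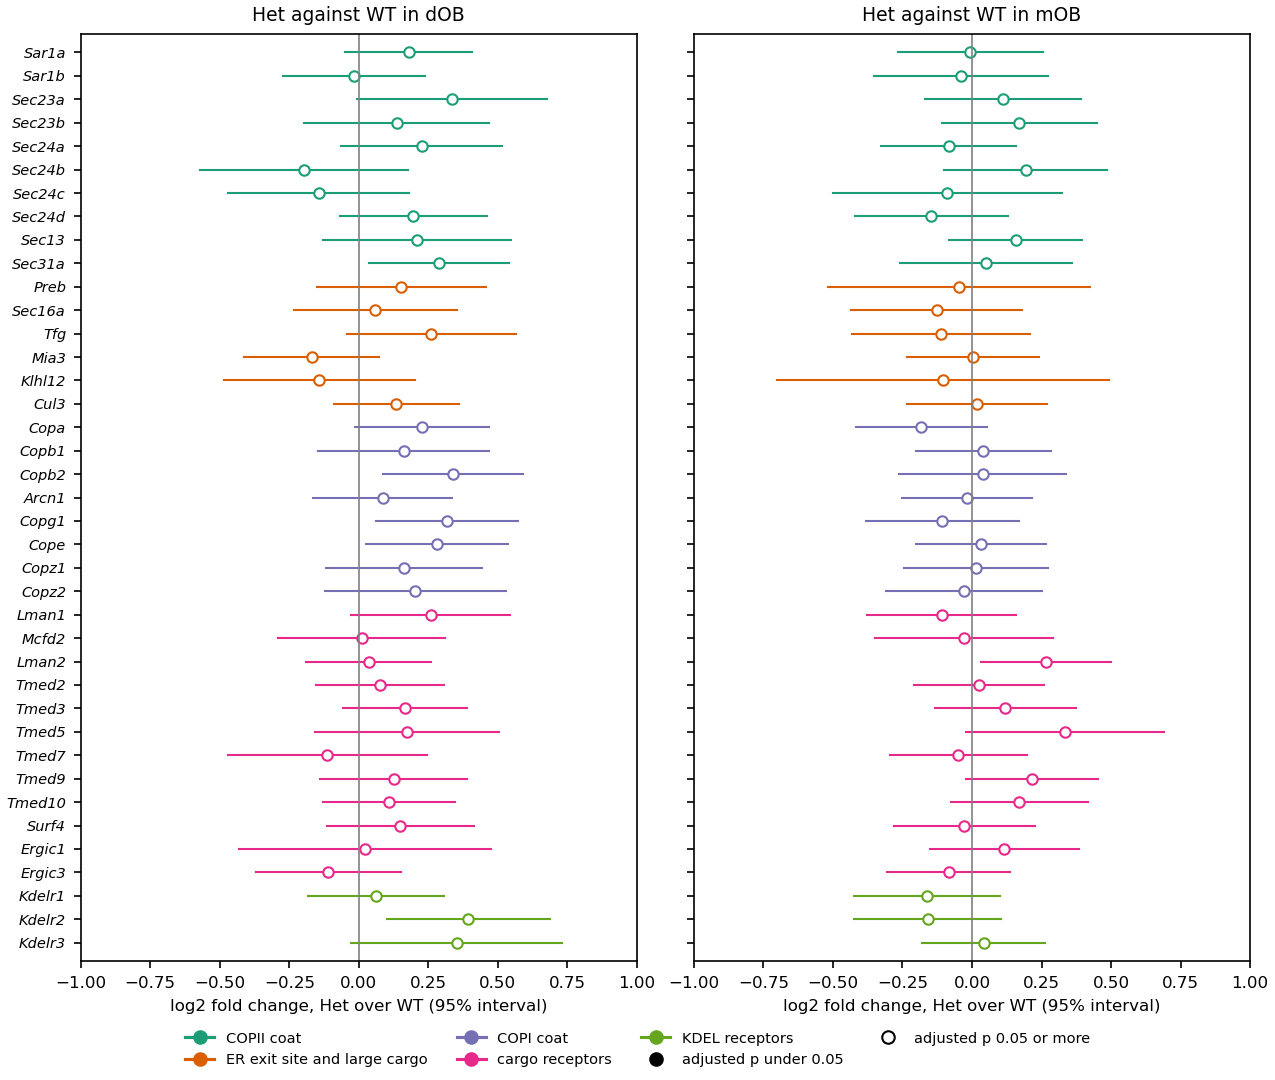
Log2 fold change of Het over WT for each of the 39 genes in differentiating osteoblasts (left) and mature osteoblasts (right), with 95% intervals (edgeR, 4 libraries per genotype, kit version in the model). All points are open, since 0 genes passed; in dOBs 32 of 39 points lie to the right of 0 and in mOBs 19 do.

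In dOBs, 0 of the 39 genes passed in edgeR (0.00981% of all genes did, and DESeq2 called 0 of the 39), but the values leaned one way. The log2 fold change was above 0 for 32 of the 39 genes and below it for 7, where 49.4% of all genes were above 0. The median was 0.15 against -0.00 over all genes. In the non-OB cells of the same libraries 32 of the 39 were above 0 as well (52.4% of all genes), with a median of 0.30 against 0.03. In dOBs, 5 genes were higher and 0 lower at an unadjusted p under 0.05 in edgeR. Among all genes 7.37% were past that limit, 3.57% with a higher value. That number of genes was 10 without S2, 3 without S1, S3, S6 or S8, 9 without TMM and 0 without kit version in the model. With a looser selection of OBs it was 1, and the median was 0.08. The shares of all genes in these fits are not given, so the counts show only that the number moved with the fit. Kdelr2 was at 321, 477, 350.2 and 313 in WT and 589.5, 506, 407 and 439.7 in Het, so that within each kit version both Het libraries stood above both WT libraries (0.39, interval 0.10 to 0.69, unadjusted p 0.0126, adjusted p 0.585 in edgeR). The same order within kit versions held for Sec31a, at 204, 226, 256 and 241 in WT and 314, 292, 263 and 282 in Het (0.29, adjusted p 0.629). Copb2 (0.34), Copg1 (0.32) and Cope (0.28) of the COPI coat were the others, and all 8 COPI genes were above 0. Sec23a was at 0.33 (interval -0.01 to 0.68) and Sec24d at 0.20 (-0.07 to 0.46). In eOBs 0 genes passed either limit (0% of all genes adjusted, 3.87% unadjusted), and DESeq2 called 0. Sec23a stood at -0.06 (interval -0.54 to 0.43) and Sec24d at -0.02 (-0.52 to 0.49) there.

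An interaction term, with the library as a block, asked if mOBs and dOBs responded differently to the genotype. It gave 0 calls among the 39 genes and 0% among all genes. At an unadjusted p under 0.05 it was lower in mOBs for Kdelr2 (-0.58, p 0.0123), Copg1 (-0.44, p 0.0251) and Copa (-0.42, p 0.0399), where 4.51% of all genes were past that limit. The interaction between mOBs and eOBs gave 0 at either limit (0% and 3.26% of all genes).

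Of the 59 further genes of the route, 0 were called in Het mOBs, against 0.518% of all genes. At an unadjusted p under 0.05 in edgeR there were 2, Cnih4 (0.40) and Bcap29 (0.49), against 11% of all genes. Without TMM 5 of the 59 were past that limit, all of them higher, a count given without the share of all genes. Creb3l1 was at 736, 632, 331 and 292 in WT mOBs and 798, 961, 263 and 495 in Het mOBs (0.31, adjusted p 0.556), with 1 Het library below both WT libraries in kit version 3.1. In dOBs its log2 fold change was 0.49 (unadjusted p 0.0097, adjusted p 0.585 in edgeR), and Creb3l2 stood at -0.02 in mOBs. The study reported higher Creb3l1 in Het P5 OBs from Wilcoxon tests over cells, whereas libraries are the unit here.

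The collagen transcripts and the markers of other cells were compared between genotypes in mOBs as well. Col1a1 took 9.75% ± 2.07 (SD, n = 4) of mOB UMIs in WT and 7.28% ± 1.25 in Het, and Col1a2 6.45% ± 1.28 against 4.50% ± 0.814. Since mOBs were selected by Col1a1, these collagen shares are given with no test. Summed smooth muscle and pericyte markers were at 0.0139% of mOB UMIs in WT and 0.0318% in Het. The exact permutation test (two-sided) gave p = 0.0286, the smallest p that 4 against 4 libraries allow, and the other 6 marker lists gave exact p-values from 0.0857 to 0.629. That test takes no account of kit version. With genotypes permuted within kit versions, an alternative added after the values were seen, 3 lists reached exact p = 0.0556, the smallest that this design allows: the smooth muscle and pericyte markers, the haematopoietic markers and the OB maturation list (Alpl, Ifitm5, Dmp1, Phex, Bglap and Spp1, summed with the progenitor genes Cxcl12 and Sox9). The maturation list took 3.54%, 4.71%, 1.77% and 1.85% of mOB UMIs in the WT libraries S1, S2, S5 and S6 and 2.03%, 1.85%, 1.17% and 1.29% in the Het libraries S3, S4, S7 and S8. Of its genes, Bglap was called lower in Het (log2 fold change -2.08, adjusted p 0.0448 in edgeR), and the other 7 did not pass. Haematopoietic markers took 0.0671%, 0.0488%, 0.00178% and 0.000957% in WT and 0.0032%, 0.0164%, 0.000832% and 0.00015% in Het. For both lists the Het libraries were below the WT libraries of the same kit version. Erythroid markers summed to 0.0491% and 1.27% of mOB UMIs in the WT libraries S1 and S2, 0.0444% and 0.262% in the Het libraries S3 and S4, and 0.00271% to 0.0330% in S5 to S8. The part of any of these values in the values above was not tested.

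In the cells that were not OBs, 0 of the 39 genes passed between Het and WT in edgeR (0% of all genes), and DESeq2 called 1, Tmed5, lower, where it called 7.35% of all genes lower and 4.29% higher. At an unadjusted p under 0.05 there were 16, 15 of them higher in Het, where 25.6% of all genes were past that limit and 12.6% were so with a higher value. Without S1 there were 3, without S2 3, without S3 7 and without S4 6, and without kit version in the model there was 1. The share of all genes in each of these fits is not given beside the counts. The 2 kit versions differed: for 14 of the 39 genes the effect differed between them at an adjusted p under 0.05 in edgeR (23.6% of all genes did, 12.9% with the lower value in version 3.1). Each of the 14 had the larger value in kit version 3, where the WT libraries S1 and S2 held the high shares of cells with haematopoietic and erythroid markers. For Kdelr3 the log2 fold change was 1.81 in kit version 3 and 0.14 in version 3.1. Copz2 was at 59.8 and 46.9 in S1 and S2, 213 and 166 in S3 and S4, and 164 to 197 in S5 to S8, so that the WT libraries of kit version 3 stood apart from the other 6.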

How the data were processed

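Parietal bone cells of P5 pups were captured on a droplet platform (10x Genomics) in 4 WT and 4 Het libraries. The authors deposited raw UMI counts per gene and cell, made with Cell Ranger 5.0.0 (S1 to S4) or 6.0.1 (S5 to S8) per the file headers and aligned to mm10 per the labels, with no normalization. The reads were counted at the 3′ end of transcripts, so counts do not scale with gene length. The study itself divided UMIs by total UMIs per cell and compared cells; cells are not replicates, so counts were summed here per library and cell group and tested across libraries.

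Libraries with under 10 cells in a group were left out of that group. Sums were tested in edgeR 4.0.16 (limma 3.58.1, R 4.3.3) with filterByExpr, TMM, estimateDisp, glmQLFit and glmQLFTest over all genes that passed, with Benjamini-Hochberg adjustment and calls at 0.05. Het and WT were compared with kit version in the model, and stages, OBs against other cells, and the genotype by stage interaction with the library as a block. Standard errors and 95% intervals were computed from the fold change and its p-value. Sums, ratios and exact tests were computed with Python 3.11.15, pandas 2.3.3 and scipy 1.17.1. DESeq2 1.42.0, RLE size factors, no filter on low counts, no TMM, other cell selections and leaving out each library were tried as alternatives. The fits of Het against WT in mOBs and of mOBs against eOBs were also run on simulated counts. Those counts held no differences between kits or libraries other than depth, so they do not show how the fits handle such differences. No doublet caller was run; OBs with markers of another cell class were left out as an alternative. Doublets and cells that share a barcode were otherwise kept. Klhl12 had the fewest UMIs of the 39 genes, and its values are the least precise.

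Values of single genes are given for the 6 genes at most with the largest change among those called in each direction (mOBs against eOBs, OBs against other cells), for the 3 with the lowest p in Het against WT in mOBs, and for Sec23a, Sec24d, Mia3, Klhl12 and Kdelr2 whatever they showed. Values of other members in the stages, the 5 genes named in dOBs, and the paralogue pairs were added after their values were seen. The 39 genes and all lists were chosen with earlier results of these data known. Nothing in the labels ties same-numbered WT and Het libraries to a shared litter, and the correlation of their deviations from the group means ran from -0.142 to 0.078. Positions are from GENCODE M21 (GRCm38) and promoter sequences from RefSeq (GRCm38.p6).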

Additional observations from a re-analysis of the deposited data

Results flagged for a closer look

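In the cells that were not OBs, the effect of the genotype (log2 fold change of Het over WT) differed between kit versions for 14 of the 39 genes at an adjusted p under 0.05 (edgeR, difference tested in 1 fit over 8 libraries). Among all 16962 genes tested 23.6% differed so, 12.9% with the lower value in kit version 3.1. The effect in kit version 3.1 minus that in kit version 3 was -1.74 for Copz2, -1.67 for Kdelr3, -1.42 for Sec24d, -1.08 for Sec31a, -1.06 for Sec23a, -0.93 for Lman1, -0.83 for Tmed3, -0.81 for Kdelr2, -0.74 for Surf4, -0.74 for Copg1, -0.71 for Sar1a, -0.69 for Kdelr1, -0.69 for Copa and -0.61 for Ergic3. Cells with at least 3 haematopoietic markers were 56.5% and 46.5% of the cells in the WT libraries of kit version 3 and 3.21% to 9.75% of those in the other 6 libraries, and their part in these differences was not tested. In mOBs, dOBs and eOBs the same test called 0 of the 39 genes. In 34 groups of 4 libraries, all of mOB levels within a genotype, no single library stood out from the other 3 by Dixon's test, which cannot mark a pair such as S1 and S2.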

How the results depend on the processing

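With 4 libraries per genotype, and 22 to 23 eOBs in 3 of the 8 libraries, the genotype was compared in eOBs on few cells, and what size of effect could be detected there was not measured. The count of called genes stayed within 1.5 times in 188 of 194 alternative values. Comparisons with no called gene before and after counted as unchanged there, and the direction of a call was not counted. From eOBs to mOBs without TMM the total counted as unchanged, although some genes lost their call as higher and others were newly lower, as given above. Without OBs that hold markers of another class, 15 genes were called from eOBs to mOBs (3 libraries, in place of 32), 12 from dOBs to mOBs (5 libraries, in place of 30) and 0 from eOBs to dOBs (in place of 22); that selection has fewer libraries and cells, and it left no value for Het against WT in eOBs. Fewer calls under that selection do not by themselves mean smaller changes, and the share of all genes called higher there is given above only from eOBs to mOBs. Without TMM 18 genes were called from dOBs to mOBs (10 higher). Leaving out 1 library at a time, OBs against other cells gave 14 to 22 calls, the lowest without S4. DESeq2 called 1 gene, against 0, between Het and WT in the non-OB cells, where it called 11.6% of all genes and edgeR 0%. The replicate block, with the numbers of the titles within kit version as pairs, gave 0 calls in all 4 Het and WT comparisons. At an unadjusted p under 0.05 the block left 3 genes in dOBs and 4 in the non-OB cells, counts given without the share of all genes in the same fits. The sign of some uncalled values of single genes changed, none of them called after the change. In Het mOBs, without OBs that hold markers of another class, Lman2 was at -0.36 and Sec23a at -0.57, where the only WT library of the Het libraries' kit version was S1, with 10 mOBs. Mia3 in Het mOBs, at 0.00, was at -0.0070 with RLE size factors, -0.0069 in DESeq2, -0.011 without collagen genes, -0.048 with the looser selection, -0.068 without OBs with haematopoietic, endothelial, muscle or fibroblast markers and -0.020 with mOBs over 5% Col1a1. Klhl12 from eOBs to mOBs, at -0.01, was at 0.079 without a filter, 0.0027 without collagen genes, 0.025 with the stricter selection, 0.0081 under 5% mitochondrial UMIs and 0.10 with mOBs over 5% Col1a1. Klhl12 in OBs was at 0.71 against haematopoietic-like cells. Leaving out 1 library, Sec23a in Het mOBs ran from -0.017 to 0.21, Mia3 from -0.077 to 0.058 and Klhl12 from -0.41 to 0.046, and Klhl12 from eOBs to mOBs ran from -0.10 to 0.049. The cause was not tested. These are 24 values of named genes. Of the others, 527 kept their direction and side of the threshold, 5 no longer passed and 8 newly passed, all of them Klhl12: 7 as lower in OBs against other cells (the lowest adjusted p 0.0177, against chondrocyte-like cells) and 1 from eOBs to mOBs without TMM (-0.44, adjusted p 0.0341). Kdelr3 (0.34) and Sec23a (0.32) did not pass against chondrocyte-like cells, and Copz2 (0.99) did not pass without S4.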
